A study of Mus musculus with 6 samples.

Results

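Single skipped exons were examined in DN3 thymocytes, the T cell precursors of the mouse thymus that carry CD25 and lack CD4, CD8, CD44 and markers of other lineages. Mice of 5 weeks, untreated and either WT or with a conditional knockout of Hspa9 (Hspa9 cKO), gave 3 libraries per group. The protein of Hspa9, GRP75 or mortalin, is an HSP70-type chaperone inside mitochondria, and the study asked what it does in early thymocytes. Which Cre line made the knockout is not stated in these sources. No label ties a library to an animal of its own, so the p-values reflect the spread among libraries alone, and that spread may be technical.

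Each event pairs an inclusion form, in which an exon lies between the flanking exons, with a skipping form, in which the same flanking exons are joined directly. The members were chosen by these measured levels: they are the pairs whose forms shared locus, strand and both flanking splice sites and whose summed level averaged at least 5 FPKM over the 6 libraries. FPKM is an estimated fragment number scaled to transcript length and library size. This left 5084 of 8782 single skipped-exon pairs (57.9%), in 3289 genes, of which 2084 had 1 pair and 1205 had several. The long noncoding RNA gene Firre held the most, 13. Just below the threshold lay pairs of Rbks (4.997 FPKM) and Gpcpd1 (4.998), and just above it pairs of Thrap3 (5.005) and Egfl7 (5.005).

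Skipped or cassette exons are the most familiar form of alternative splicing: the spliceosome either defines the exon and joins it to both neighbours or passes over it. When the length of a coding exon is a multiple of 3, skipping removes amino acids and keeps the reading frame; otherwise it shifts the frame and often brings a premature stop codon. Such transcripts are commonly degraded by nonsense-mediated decay, and exons that bring the stop codon when they are included are called poison exons. Microexons, the shortest class, are known mainly from neurons, and in T cells alternative exons of surface receptors, kinases and transcription factors change with development and activation.

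The coding exons below are shown because their ratio of inclusion to skipping differed between the genotypes in the test described further on. That of Fosb, a coding exon described with the results of that test, also differed and is not shown. Letters are from the GENCODE M21 transcripts, positions are in GRCm38 (mm10), capitals mark the exon and lower case the 15 bases of the neighbouring exons on either side, which the skipping form joins.
Ldha exon 6 of 8, chr7:46851877-46851994, plus strand: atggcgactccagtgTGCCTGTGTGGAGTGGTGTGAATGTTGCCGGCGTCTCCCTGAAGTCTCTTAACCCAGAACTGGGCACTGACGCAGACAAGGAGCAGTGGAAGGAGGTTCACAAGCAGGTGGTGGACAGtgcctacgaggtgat
Mthfd1 exon 2 of 28, chr12:76270418-76270502, plus strand: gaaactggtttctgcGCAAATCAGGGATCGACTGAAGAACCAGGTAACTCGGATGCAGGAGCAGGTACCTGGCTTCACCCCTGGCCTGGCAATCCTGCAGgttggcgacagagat
Tnks2 exon 18 of 27, chr19:36876185-36876373, plus strand: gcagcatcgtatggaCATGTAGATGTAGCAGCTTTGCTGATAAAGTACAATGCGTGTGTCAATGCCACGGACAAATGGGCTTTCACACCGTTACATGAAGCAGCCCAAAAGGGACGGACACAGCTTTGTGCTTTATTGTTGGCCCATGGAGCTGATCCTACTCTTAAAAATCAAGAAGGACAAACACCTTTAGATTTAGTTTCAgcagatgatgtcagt
Rapgef2 exon 7 of 30, chr3:79169739-79169756, minus strand: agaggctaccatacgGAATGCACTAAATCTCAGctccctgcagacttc
Tnrc18 exon 13 of 16, chr5:142764769-142764897, minus strand: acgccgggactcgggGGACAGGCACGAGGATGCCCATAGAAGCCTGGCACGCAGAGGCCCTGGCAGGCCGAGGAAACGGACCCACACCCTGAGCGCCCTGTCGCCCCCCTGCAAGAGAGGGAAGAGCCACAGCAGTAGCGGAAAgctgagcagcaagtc
Fyb exon 11 of 18, chr15:6644762-6644899, plus strand: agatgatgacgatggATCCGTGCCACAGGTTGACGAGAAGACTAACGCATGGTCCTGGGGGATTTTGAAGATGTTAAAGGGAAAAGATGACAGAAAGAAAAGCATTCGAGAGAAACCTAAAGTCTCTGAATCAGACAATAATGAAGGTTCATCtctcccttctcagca
Def6 exon 3 of 11, chr17:28217601-28217786, plus strand: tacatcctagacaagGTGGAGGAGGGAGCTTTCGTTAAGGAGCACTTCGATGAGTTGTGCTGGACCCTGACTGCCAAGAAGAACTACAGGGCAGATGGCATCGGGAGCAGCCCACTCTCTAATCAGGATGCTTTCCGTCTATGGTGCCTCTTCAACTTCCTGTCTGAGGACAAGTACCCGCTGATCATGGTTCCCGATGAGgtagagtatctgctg
Cd3g exon 2 of 7, chr9:44975247-44975270, minus strand: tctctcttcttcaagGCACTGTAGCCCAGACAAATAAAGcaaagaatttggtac
Of these 8 exons, 5 end in AG and 5 begin with G, and 6 have a length that is a multiple of 3. Among all coding members these fractions were 56.0%, 46.3% and 47.7%. The lengths of the Ldha and Mthfd1 exons are not multiples of 3, so their skipping shifts the reading frame.

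The targeted gene was checked first. Hspa9 is no member itself, since the event at its locus covers exons 2 to 4 together. Their inclusion form stood at 105.3, 108.8 and 104.6 FPKM in the WT libraries and at 24.9, 16.8 and 25.2 in the Hspa9 cKO libraries, while the form that skips them stood at 0, 12.3 and 16.95 against 76.9, 89.4 and 68.9. The groups did not overlap in either form. Without counts in the tables the read depth is not known. A form that a table leaves out was taken as 0, which can be a failed estimate. All 12 DN3 markers were listed, with summed levels of 1682 to 2449 FPKM in WT and 2117 to 2518 in Hspa9 cKO, a sum to which Thy1 (416 to 963) adds most of the spread. Il2ra, which encodes CD25, stood at 145 to 158 FPKM in WT and 367 to 383 in Hspa9 cKO, Ptcra at 57.9 to 84.9 against 142 to 154, Dtx1 at 26.0 to 31.2 against 75.7 to 79.4 and Rag2 at 9.09 to 11.3 against 17.1 to 21.4. Tcf7 went the other way, at 415 to 596 against 262 to 316, and none of these 5 overlapped. The 5 markers of later T cells summed to 7.99 to 12.6 against 4.02 to 5.69 FPKM, and the 6 of DN1 and DN2 progenitors to 8.55 to 11.7 against 8.40 to 10.4. Of the lists for other cells, 1 of 5 B cell markers was listed (Cd79b, 9.75 to 12.6 against 15.3 to 18.3), 1 of 5 NK cell markers (Gzma, 171 to 187 against 143 to 148) and 1 of 4 epithelial markers (Epcam, 27.2 to 29.1 against 36.7 to 43.0), while Cd79a, Pax5, Ncr1, Eomes, Foxn1 and Krt5 were listed in 0 libraries. The 6 myeloid markers, of which Itgam and Siglech were at 0, summed to 8.92 to 14.99 against 13.5 to 15.5, and the 4 erythroid ones stayed under 1. In bulk samples fewer cells of a type and less RNA per cell cannot be told apart, and the part of these markers in the exon values was not tested.

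The median inclusion share was higher in each Hspa9 cKO library than in any WT library. The inclusion share of a pair is its inclusion FPKM as a percentage of both forms. The median over the members was 80.3%, 81.4% and 81.7% in the WT libraries and 84.4%, 86.4% and 85.7% in the Hspa9 cKO libraries, here and below in the order of their replicate numbers. The groups did not overlap, with a difference of 4.35 percentage points (exact two-sided permutation test, p = 0.1, the smallest that 3 against 3 libraries can give). Exon by exon the differences were smaller: the difference of group means per exon had a median of 0.224 points and a mean of 1.53. Over the 3238 coding members the median share was 97.7%, 97.8% and 97.4% in WT and 98.8%, 98.9% and 98.9% in Hspa9 cKO, a difference of 1.24 points without overlap (exact permutation p = 0.1). The 376 exons absent from the annotation had a median of 0% in every library. Weighted by level, the skipping forms made up 44.4%, 44.1% and 44.3% of the summed FPKM in WT and 43.1%, 42.3% and 42.8% in Hspa9 cKO. This share was lower by 1.55 points (difference -1.55, exact permutation p = 0.1), again without overlap.

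How many forms the tables list differed in the same way. Skipping forms of the members were listed 4121 to 4169 times per WT library and 3916 to 3953 times per Hspa9 cKO library, although the Hspa9 cKO tables list more events in all (90561 to 90970 against 87403 to 89771). Inclusion forms were listed 4297 to 4365 times in WT and 4399 to 4416 times in Hspa9 cKO. A share of exactly 100% was therefore more frequent in Hspa9 cKO libraries, with 956 to 1012 pairs against 773 to 829. The difference in the median did not rest on these unlisted forms alone: over the 2051 pairs with both forms listed in all 6 libraries, the median was 67.0%, 66.5% and 67.0% in WT and 70.6%, 70.7% and 71.8% in Hspa9 cKO, a difference of 4.22 points (exact permutation p = 0.1).

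Multi-exon skipping and retained introns are the other common paired events, and their medians lie near an end of the scale. For the 730 multi-exon pairs the median share was 98.2% to 98.9% in WT and 99.4% to 99.5% in Hspa9 cKO. For the 3159 retained-intron pairs it was 0.611% to 1.32% and 1.07% to 1.66%, so the ranges overlapped. Weighted by level, the form without the exons made up 35.1%, 34.6% and 34.3% of the multi-exon signal in WT and 31.6%, 31.7% and 32.8% in Hspa9 cKO, a difference of -2.64 points beside the -1.55 of single skipped exons. The form without the intron differed by -0.666 points for single retained introns and by -2.12 for the 534 pairs of several retained introns. None of these 3 shares overlapped between the groups (exact permutation p = 0.1 each).

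**Figure D1:**
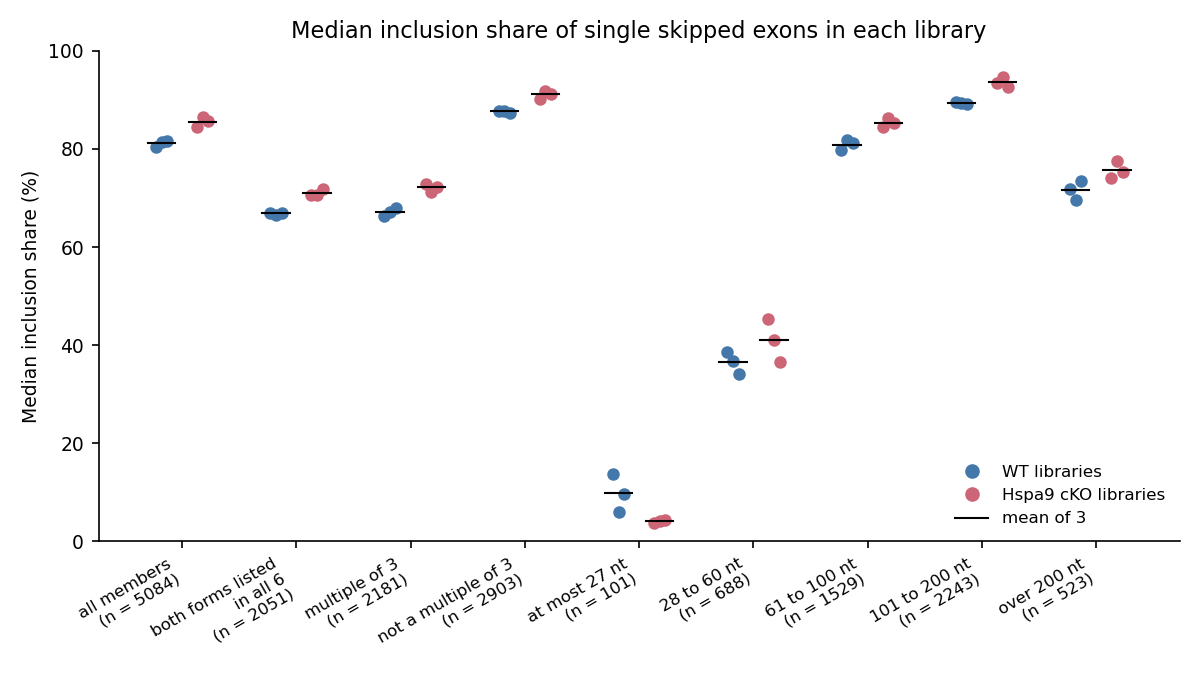
Median inclusion share (percent) in each library for all members and for classes by listing, frame and exon length (nt, nucleotides); points are libraries, WT blue and Hspa9 cKO red, and black bars are the means of 3. In every class but the shortest exons the mean of the Hspa9 cKO libraries is the higher one, and only exons of 28 to 60 nucleotides show overlapping groups.

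Most exons stood near one end of the scale. Averaged over the 6 libraries, 2264 of the 5039 pairs with a share in every library were included above 90%, 1442 under 10% and 1333 in between. Exon lengths ran from 3 nucleotides, about 1 codon, to the 5916 nucleotides of an exon of Naca, with a median of 106. Of the exons, 4708 (92.6%) are annotated in GENCODE M21, and the 376 others had a median share of 3.96%. By place, 3238 members were wholly coding and had a median share of 96.2%. The 401 exons in 5′ untranslated regions stood at 14.4% and the 349 of noncoding transcripts at 2.499%. These medians, and those of both genotypes together below, are taken over the mean of the 6 libraries for pairs with a share in each. They can therefore differ from the medians of single libraries above.

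Reading frame and inclusion went together among wholly coding exons. Among coding members, the 1546 exons whose length is a multiple of 3 had a median share of 90.2%, and the 1692 others 97.5%. Under 10% inclusion, 75.9% of the coding exons had a length that is a multiple of 3. The share was 61.1% for those between 10% and 90%, and 37.6% for those above 90%. For 156649 internal coding exons of principal GENCODE transcripts it was 40.7%. Over members of all places the same 3 classes had 42.9%, 52.4% and 37.3%, beside 42.9% of all members. Exons that are coding only in part are outside the coding class. These 659 had a median share of 5.81%, and 34.3% of their lengths were multiples of 3. How far this placing shapes the link among coding exons was not tested. Coding exons with low inclusion were also short, with a median of 68.5 nucleotides against 111 for those above 90% and 123 in the annotation. Fewer of them began with G, 36.1% against 49.6% of those above 90%, while the fraction ending in AG was alike, 57.7% and 56.2%.

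**Figure D2:**
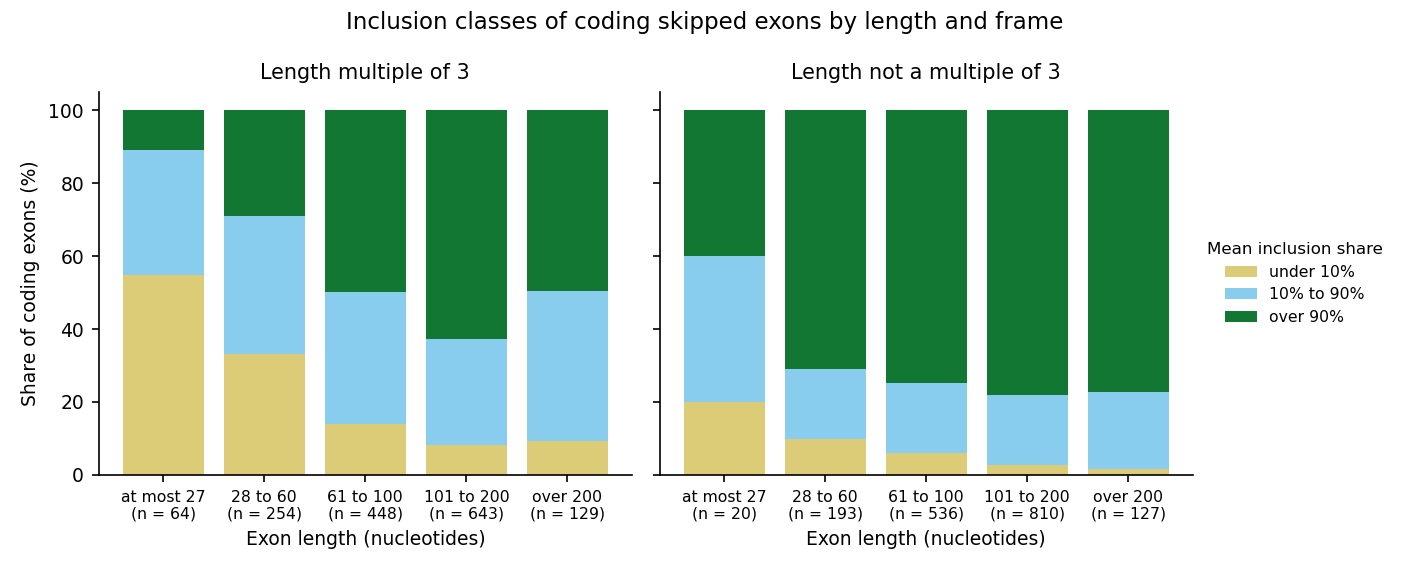
Coding skipped exons by length class (x axis, nucleotides) and frame (left, length a multiple of 3; right, other lengths), as the percentage of exons with a mean inclusion share under 10%, from 10% to 90% and over 90%. Among exons of at most 27 nucleotides that keep the frame, 54.7% were included under 10%, while for frame-shifting exons longer than 200 nucleotides this was 1.57%.

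Members were also classed by whether annotated transcripts with and without the exon are coding or marked for decay. Decay itself was not measured. Because a frame shift often brings a premature stop codon, the frame percentages follow in part from how these classes are made. Where the exon lies in coding transcripts and skipping gives a transcript marked for nonsense-mediated decay (609 pairs), the median share was 98.4% and 3.45% of the lengths were multiples of 3. In the mirror case, 467 pairs whose exon belongs to decay transcripts and whose skipping form is coding, the median share was 1.96%. Where both forms are coding (2222 pairs), it was 76.1% and 66.7% of the lengths were multiples of 3. These levels describe both genotypes together.

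Both frame classes had higher medians in Hspa9 cKO. Frame-keeping exons of all places (2181) had medians of 66.3%, 67.1% and 68.0% in WT and 72.9%, 71.3% and 72.3% in Hspa9 cKO. The 2903 frame-shifting exons had medians of 87.7%, 87.8% and 87.4% against 90.2%, 91.9% and 91.2%. Neither class overlapped between the groups. The gap between the classes was -21.5, -20.7 and -19.3 points in WT and -17.3, -20.6 and -18.9 points in Hspa9 cKO. These gaps overlapped between the groups and differed by 1.57 points (exact permutation p = 0.2).

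By length, the differences of the median were 4.51 points for exons of 28 to 60 nucleotides, 4.50 for those of 61 to 100, 4.30 for those longer than 100 and up to 200, and 3.99 for exons over 200 nucleotides. The first of these overlapped between the groups (exact permutation p = 0.3) and the others did not (p = 0.1 each). By level, the differences ran from 5.28 points for pairs at 5 to 10 FPKM to 3.68 for pairs at 20 to 50 FPKM, without overlap. Above 50 FPKM the difference of 3.76 points came with overlapping groups (exact permutation p = 0.3).

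The median over exons of at most 27 nucleotides was lower in Hspa9 cKO. This median share was 13.7%, 5.92% and 9.74% in WT and 3.68%, 4.24% and 4.32% in Hspa9 cKO, a difference of -5.70 points without overlap (exact permutation p = 0.1). Exon by exon the difference of group means had a median of 0.00116 points and a mean of 0.0481. Among these microexons 72.3% had a length that is a multiple of 3, and 49.5% of the 97 with a share in all 6 libraries were included under 10%. The size of the difference depended on which pairs were taken: it was -2.85 points with no filter on level, -3.59 for pairs of at least 10 FPKM, -2.09 for the 37 pairs with both forms listed throughout (exact permutation p = 0.7) and -1.09 for the 66 coding, frame-keeping microexons (p = 0.3). It was -3.75 points without WT replicate 1.

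Exon by exon, 397 members had shares in all Hspa9 cKO libraries above all WT libraries, and 161 the reverse. This was 7.88% and 3.2% of the 5039 pairs with complete shares. Over all paired event kinds, 6.64% were higher and 3.68% lower, and over the kinds other than single skipped exons 5.27% and 4.2%. Among those other kinds, multi-exon skipping had 7.72% higher and 1.54% lower, and retained introns 4.52% and 4.71%. Of the non-overlapping pairs, 144 were higher and 52 lower by at least 10 points, and 74 and 21 by at least 20 points. For most exons the groups were close: 68.7% had group means less than 5 points apart. The spread within a group was 2.34 points in WT and 1.497 in Hspa9 cKO (median SD, n = 3 each). Across exons, the rank correlation of shares was 0.847 to 0.851 between WT libraries, 0.872 to 0.874 between Hspa9 cKO libraries and 0.848 to 0.858 between the genotypes (Spearman, 5039 exons, which are not independent).

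**Figure D3:**
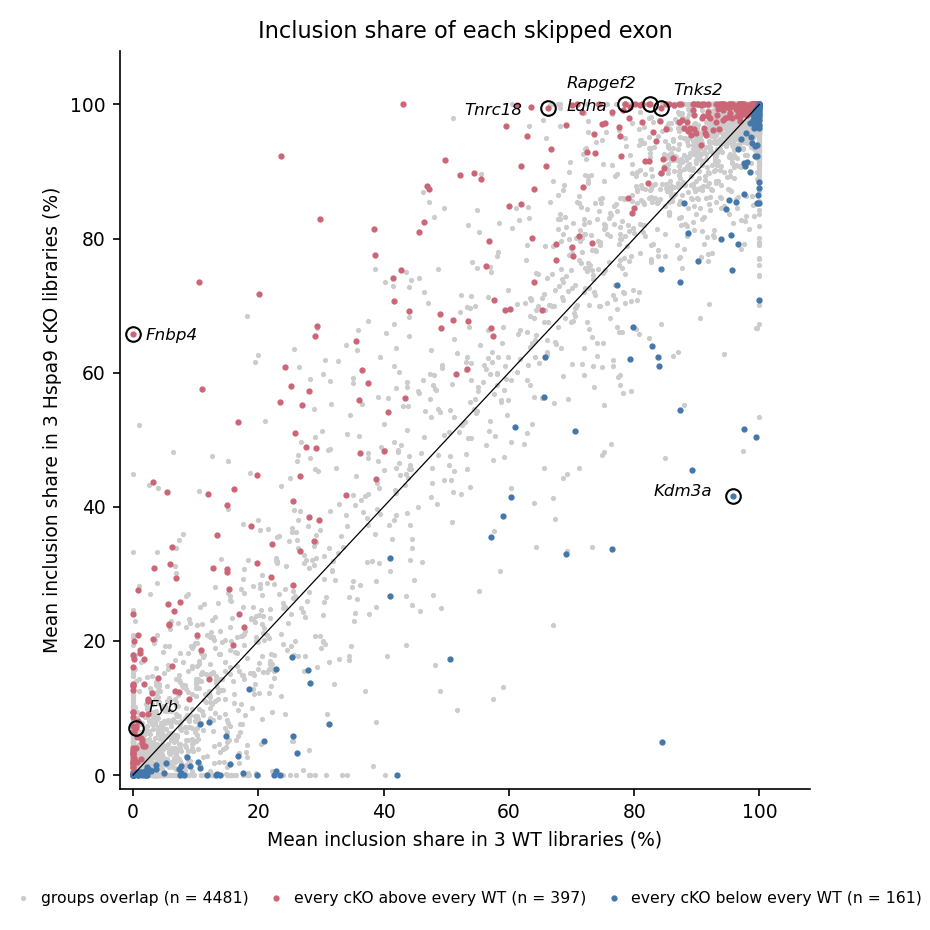
Mean inclusion share in the 3 WT libraries (x axis, percent) against that in the 3 Hspa9 cKO libraries (y axis, percent) for 5039 skipped exons; red points have every Hspa9 cKO library above every WT library (397), blue points the reverse (161), grey points overlap, and the line marks equal shares. Named circles are exons described in the text, such as Fnbp4 at 0% in WT and 65.7% in Hspa9 cKO.

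Some forms were listed in 1 genotype only. A skipping form was listed in all WT and in 0 Hspa9 cKO libraries for 36 pairs, and in all Hspa9 cKO and 0 WT libraries for 13. For inclusion forms the counts were 8 and 22. These counts describe the tables, and why a form is left out of one is not stated. The lowest listed value was 1e-06 FPKM in every library.

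The ratio of the forms was tested with limma on log2((inclusion + 1)/(skipping + 1)) FPKM over all 9781 paired events, with Benjamini-Hochberg adjustment at 0.05. Of the 5084 skipped exons, 11 were called (0.216%), 10 with a higher and 1 with a lower ratio in Hspa9 cKO, against 0.317% called over all paired kinds, 0.204% higher and 0.112% lower. The share of skipped exons called was thus no higher than the background. At an unadjusted p under 0.05 there were 516, or 10.1% against 9.73%. Fits without WT replicates 1, 2 and 3 called 2, 1 and 3 pairs, of which 2, 1 and 2 were among the 11. Those without Hspa9 cKO replicates 1, 2 and 3 called 5, 1 and 0, of which 1, 1 and 0 were among the 11. Where 1 form is near 0 in all libraries the ratio follows the level of the other, so totals are given beside such pairs. A total is the summed FPKM of both forms.

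Ldha, the muscle-type subunit of lactate dehydrogenase, was listed without its frame-shifting skipped form in Hspa9 cKO. The skipping form of exon 6 was listed at 43.2, 99.8 and 57.9 FPKM in WT and at 0 in each Hspa9 cKO library, while the inclusion form stood at 256, 210 and 266 against 223, 191 and 225. The inclusion share was 85.5%, 67.7% and 82.1% in WT and 100% in all 3 Hspa9 cKO libraries, with no overlap. Its log2 ratio was called (limma, adjusted p = 0.0132), but with the share itself as the tested value the adjusted p was 0.491. Transcripts that skip this exon are annotated for nonsense-mediated decay. The total of both forms also fell, by 0.55 on the log2(FPKM + 1) scale (difference -0.55, adjusted p = 0.0354).

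Mthfd1, the cytosolic enzyme that interconverts folate-bound one-carbon units, also had less of its skipping form in Hspa9 cKO, at a lower level of skipping. Unlike for Ldha, the skipping junction is annotated in a coding transcript. The Mthfd1 skipping form was at 1.97, 1.58 and 2.45 FPKM in WT and at 0.0272, 0 and 0.00791 in Hspa9 cKO. Shares were 93.4%, 94.7% and 93.3% against 99.9%, 100% and 100%, again without overlap. The log2 ratio rose by 1.52 ± 0.15 (SE, adjusted p = 0.0318), and the total was not called (adjusted p = 0.516).

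Tnks2 encodes a tankyrase, a poly-ADP-ribosylating enzyme with ankyrin repeats. Skipping of its exon 18 stood at 4.49, 5.10 and 3.67 FPKM in WT and at 0.121, 0.107 and 0.143 in Hspa9 cKO. The shares, 84.1%, 83.8% and 85.0% against 99.6%, 99.5% and 99.5%, were tight within each group and far apart between them. The log2 ratio rose by 2.37 ± 0.20 (SE, adjusted p = 0.019) with no called change of the total (adjusted p = 0.656).

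In Tnrc18 the exon of 129 nucleotides was included at 60%, 64.6% and 74.1% in WT and at 100%, 98.9% and 99.3% in Hspa9 cKO. Both the loss of the skipping form (3.44, 3.29 and 2.12 against 0, 0.176 and 0.0822 FPKM) and a higher inclusion form (5.16, 6.02 and 6.08 against 11.2, 15.4 and 11.9 FPKM) entered the ratio. It rose by 2.87 ± 0.30 (SE, adjusted p = 0.0318).

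Rapgef2, an exchange factor that activates Rap GTPases, has a microexon of 18 nucleotides that adds no frame shift. Its inclusion form stood at 7.42, 6.77 and 6.64 FPKM in WT and 16.4, 17.6 and 14.8 in Hspa9 cKO, and the skipping form at 2.14, 1.24 and 1.13 against 0 in each. Shares were 77.6%, 84.6% and 85.4% against 100% throughout, so this called microexon moved against the median of its class (adjusted p = 0.0289). Its total rose by 0.87 on the log2 scale (adjusted p = 0.0218).

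Fyb encodes ADAP, the adaptor that links the T cell receptor to integrin activation, and the exon of 138 nucleotides distinguishes its longer isoform. Inclusion was rare in both groups: 0.415, 0.359 and 0.149 FPKM in WT and 7.52, 2.70 and 3.46 in Hspa9 cKO. Beside skipping forms of 65.4, 64.6 and 61.9 against 88.8, 44.3 and 43.4 FPKM, the shares were 0.631%, 0.552% and 0.240% against 7.81%, 5.74% and 7.38%. They did not overlap, and the log2 ratio rose by 2.20 ± 0.22 (SE, adjusted p = 0.0318).

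A noncoding exon and an exon of a 3′ untranslated region appeared in Hspa9 cKO libraries alone. In Fnbp4, which encodes a formin-binding protein, the exon of 103 nucleotides (chr2:90767853-90767955, plus strand, in noncoding transcripts) was listed at 0 in WT and at 27.2, 44.9 and 27 FPKM in Hspa9 cKO. Its shares there were 57.9%, 84.3% and 55.0% (adjusted p = 0.0435). Rps24, a protein of the small ribosomal subunit, has short alternative exons near its end, and that of 20 nucleotides was listed at 0 in WT and at 9.02, 10.5 and 7.82 FPKM in Hspa9 cKO. Beside skipping forms of 294 to 372 FPKM this was a share of 2.60%, 3.12% and 2.34% (adjusted p = 0.0094). Of the 11 calls, that of Rps24 was kept most often, in 9 of 13 other settings, and in 4 of the 6 fits without 1 library.

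The remaining 3 calls concerned exons at almost full inclusion. Def6 encodes a guanine nucleotide exchange factor of T cells, and its exon 3 stood at 98.8%, 99.2% and 98.9% in WT and 100% in Hspa9 cKO (adjusted p = 0.0318), while its total rose by 0.43 on the log2 scale (adjusted p = 0.0331). For the microexon of Cd3g, the gamma chain of the CD3 complex, the share was 99.98% in all WT and 99.99% in all Hspa9 cKO libraries. Its inclusion form stood at 715, 723 and 760 against 1094, 1050 and 1059 FPKM, and the called ratio (0.57 ± 0.05, SE, adjusted p = 0.0227) matched the called total (0.54, adjusted p = 0.0153). The single lower ratio was that of Fosb, an AP-1 transcription factor: its exon 3 was at 100% in 5 libraries and at 92.0% in Hspa9 cKO replicate 2. The inclusion form stood at 21.8, 18.6 and 22.3 against 2.91, 3.56 and 4.01 FPKM, so the ratio (-2.42 ± 0.23, SE, adjusted p = 0.0285) followed the total (-2.26, adjusted p = 0.00375).

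**Figure D4:**
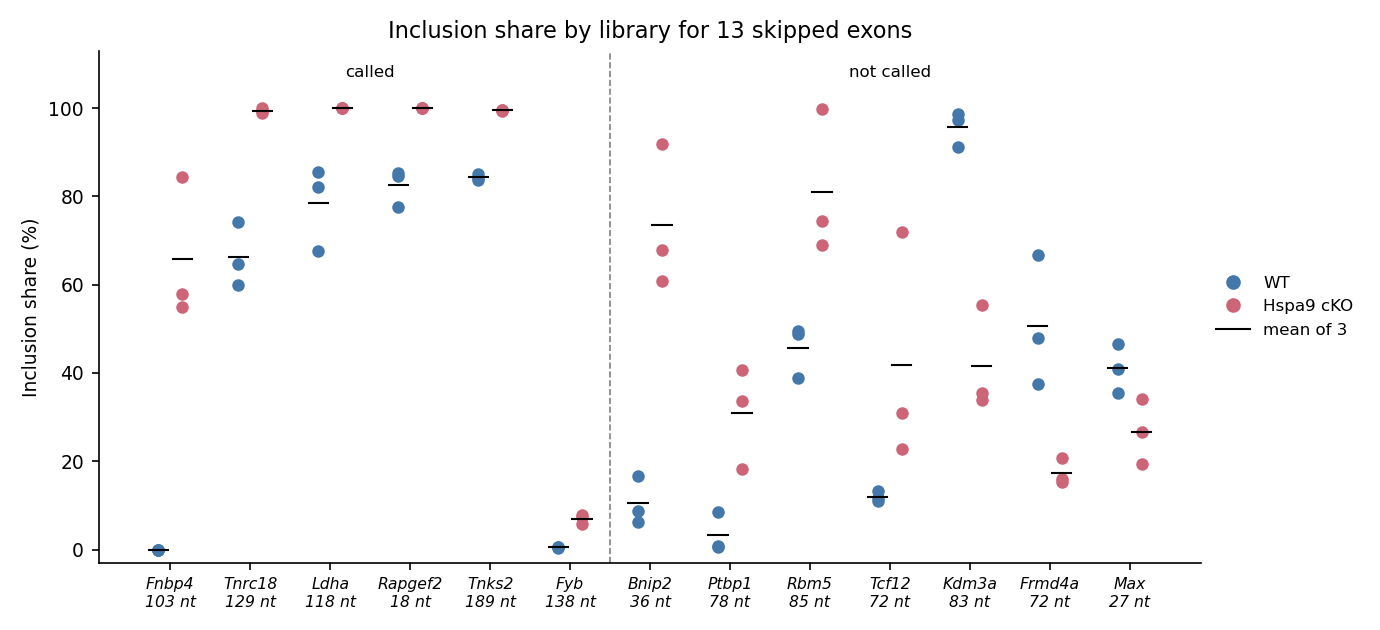
Inclusion share (y axis, percent) in each library for 13 skipped exons, with exon lengths in nucleotides (nt); points are libraries, WT blue and Hspa9 cKO red, black bars are means of 3, and a dashed line parts exons with a called ratio from those without. No exon shown has overlapping groups. The widest spread within a group is that of Tcf12 on the right (22.8% to 71.9% in Hspa9 cKO), but called Fnbp4 also ranges from 55.0% to 84.3% in Hspa9 cKO.

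With higher shares in Hspa9 cKO, more exons stood apart than were called. The following, of at least 10 FPKM and with both forms listed throughout, had the largest differences without a called ratio and were chosen after their values were seen. In Bnip2, which encodes a scaffold that binds Cdc42 and small GTPase regulators, the exon of 36 nucleotides was included at 16.7%, 6.28% and 8.78% in WT and 91.9%, 60.9% and 67.9% in Hspa9 cKO (adjusted p = 0.149). Hsf1, the heat shock transcription factor, has an exon of 66 nucleotides that separates its alpha and beta isoforms, and it stood at 39.3%, 29.9% and 46.1% against 97.4%, 49.2% and 97.8% (adjusted p = 0.472). Both genes keep their frame on skipping. Hspa9 cKO replicate 2 was the lowest of its group for both.

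Zmynd11, a reader of histone marks, showed 51.3%, 64.2% and 41.2% against 83.8%, 85.2% and 99.7% (adjusted p = 0.356). The microexon of Fip1l1, a subunit of the polyadenylation machinery, showed 36.2%, 55.5% and 50.2% against 91.2%, 71.3% and 99.7% (adjusted p = 0.345). For Itgb2, the beta chain of leukocyte integrins, WT replicate 3 stood apart at 23.4% from 78.4% and 81.9%, beside 100% after rounding in each Hspa9 cKO library (adjusted p = 0.356). Ociad1 is the exception in which the level also moved: shares of 4.03%, 25.2% and 3.85% against 53.7%, 67.8% and 51.1% (adjusted p = 0.23) came with a total that rose by 1.63 on the log2 scale (adjusted p = 0.0204). Ube2j2, Prrc2c and Nktr had differences of 53.0, 40.5 and 36.8 points, with SDs of 15 to 28.8 points among the Hspa9 cKO libraries.

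In the opposite direction 0 exons with non-overlapping shares were called. The largest differences among pairs of at least 10 FPKM with both forms listed in all 6 libraries are given as values. Kdm3a, a histone demethylase, had a 5′ untranslated exon of 83 nucleotides at 98.7%, 91.3% and 97.4% in WT and 35.5%, 55.4% and 33.8% in Hspa9 cKO (adjusted p = 0.057). The exon of Frmd4a, a scaffold of epithelial polarity, stood at 37.5%, 47.9% and 66.6% against 15.97%, 20.7% and 15.3% (adjusted p = 0.282). Its total rose by 0.58 on the log2 scale (adjusted p = 0.0204). The share in every Hspa9 cKO library was below that in every WT library in both genes. For the exon of Mdm2, the ubiquitin ligase of p53, whose skipping leads to decay transcripts, shares were 74.2%, 75.3% and 99.3% against 59.7%, 59.0% and 73.2% (adjusted p = 0.603).

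Ncor1, a nuclear corepressor, showed 67.0%, 72.6% and 72.3% against 28.9%, 61.5% and 63.4% (adjusted p = 0.603), with Hspa9 cKO replicate 1 lowest by a wide margin. Mgea5, the enzyme that removes O-linked N-acetylglucosamine, showed 84.2%, 97.8% and 69.2% against 64.8%, 57.7% and 64.4% (adjusted p = 0.541). Differences for Rbm4, Zgpat, Hnrnpr and Atp9b ran from -32.8 to -17.4 points with adjusted p-values of 0.436 to 0.668, and single libraries spread widely, as in Hnrnpr with 91.1%, 43.6% and 42.5% in WT.

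Irf1, the interferon regulatory factor, appears on both sides because its pairs share a form. The inclusion form of its exon of 92 nucleotides (62.7, 14.6 and 17.1 against 10.96, 0.158 and 0.0206 FPKM) is also the skipping form of its exon of 100 nucleotides. Shares were 99.4%, 98.96% and 99.9% against 96.3%, 34.6% and 20.4% for the former (adjusted p = 0.378) and 8.36%, 68.2% and 73.0% against 75.6%, 99.6% and 99.9% for the latter (adjusted p = 0.495). Such sharing was frequent: 614 members had an FPKM series identical to 5 decimals with that of another member. Without them, 354 exons were higher and 139 lower without overlap.

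Splicing regulators carry alternative exons of their own, many of them poison exons, and were described by lists. SR proteins and their kinases, which promote exon definition, had 31 pairs in 17 of 20 listed genes: 5 were higher and 0 lower without overlap, and 0 were called. For hnRNPs and other exon regulators (74 pairs in 34 of 42 genes) these counts were 8, 3 and 0, and for spliceosome subunits (30 pairs in 18 of 38 genes) 2, 0 and 0. The median difference was -0.000179 points for the SR list, 0.0747 for the hnRNP list and 1.83 for the spliceosome list, against 0.224 over all members. As shares of their pairs, 16.1% of the SR list were higher and 0% lower, 10.8% and 4.05% of the hnRNP list and 7.14% and 0% of the spliceosome list, beside 7.88% and 3.2% of all members, of which 0.216% were called. The exons named from these lists below were in part chosen after their values were seen, and none had a called ratio.

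Ptbp1 encodes the polypyrimidine tract-binding repressor, and its exon of 78 nucleotides lengthens the linker between RNA-binding domains. Inclusion was 0.735%, 0.663% and 8.61% in WT and 33.7%, 18.2% and 40.7% in Hspa9 cKO, without overlap (adjusted p = 0.253). Rbm5 and Rbm10 are related regulators of exon skipping. Rbm5's exon of 85 nucleotides stood at 49.6%, 48.7% and 38.8% against 74.3%, 99.7% and 68.9% (adjusted p = 0.497), and that of 231 nucleotides in Rbm10 at 1.82%, 9.61% and 8.27% against 34.8%, 19.3% and 19.4% (adjusted p = 0.388).

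Srrm1, a coactivator with SR repeats, came nearest to the threshold: 64.1%, 82.3% and 64.0% in WT against 100% after rounding in each Hspa9 cKO library (adjusted p = 0.0529). Hnrnph3 had lower values in Hspa9 cKO, 21.9%, 33.3% and 29.5% against 12.2%, 7.93% and 21.1% (adjusted p = 0.488). The most abundant pair of the hnRNP list apart from those of Hnrnpf was in Hnrnpa2b1, with 61.3%, 64.0% and 68.8% against 79.7%, 64.5% and 65.5%, overlapping (adjusted p = 0.777). Hnrnpf's 5′ untranslated exons of 61 and 75 nucleotides share a form and stood near 100% and 0% in every library.

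Exons found in decay transcripts, whose skipping form is coding, stood apart about as rarely as other members. Some may be poison exons, but whether inclusion itself brings the stop codon was not tested. The 467 pairs of the decay class gave 28 higher and 14 lower shares without overlap, 6.01% and 3.004%, beside the 7.88% and 3.2% of all members. Srsf7's exon of 460 nucleotides stood at 22.1%, 22.4% and 43.4% in WT and 51.5%, 43.7% and 51.0% in Hspa9 cKO (adjusted p = 0.516), where WT replicate 3 reached almost the lowest Hspa9 cKO value. Srsf3's counterpart of 456 nucleotides showed 16.8%, 21.1% and 23.6% against 29.1%, 20.1% and 24.6%, with overlap, and that of Tra2b 31.5%, 26.6% and 22.4% against 33.0%, 34.4% and 7.42%. In Luc7l2, a partner of the U1 particle, the decay exon of 47 nucleotides stood at 0.147%, 4.87% and 0.339% against 21.4%, 15.2% and 15.2% (adjusted p = 0.187). The exon of Prpf39, another U1 partner, lies in the 3′ untranslated region of its decay transcript. It showed 29.1%, 23.1% and 32.0% against 67.7%, 62.0% and 42.2% (adjusted p = 0.404). The decay exon of Snrnp70, the U1 protein itself, ranged from 0.466% to 29.8% within Hspa9 cKO.

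T cell genes with known alternative exons had 58 pairs in 26 of 41 genes, with 7 higher and 2 lower without overlap and 1 called (Cd3g, above). This was 12.3% and 3.51%, beside 7.88% and 3.2% of all members. Tcf12 encodes HEB, an E protein needed for T cell receptor rearrangement, and its exon of 72 nucleotides stood at 11.6%, 11% and 13.2% in WT and 71.9%, 22.8% and 30.9% in Hspa9 cKO (adjusted p = 0.477). The groups were apart, with Hspa9 cKO replicate 1 far above the rest. For the Src-family kinase Fyn the exon of 156 nucleotides showed 78.3%, 72.0% and 65.0% against 85.0%, 90.5% and 87.4% (adjusted p = 0.363). Bcl11b, the commitment factor of the lineage, showed 29.7%, 29.7% and 25.0% against 33.2%, 43.2% and 39.1% for the exon of 216 nucleotides (adjusted p = 0.603).

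Camk2g, a calmodulin-dependent kinase, showed 14.4%, 22.9% and 7.74% against 40.3%, 54.4% and 26.3% for its exon of 69 nucleotides, without overlap (adjusted p = 0.547). Lower without overlap was the exon of 126 nucleotides in Ezh2, the methyltransferase of Polycomb repression, at 78.7%, 78.6% and 74.5% against 74.4%, 71.6% and 73.1% (adjusted p = 0.723).

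Several other exons of these genes overlapped between the genotypes. Tcf7, which encodes TCF1, had an exon of 93 nucleotides at 58.6%, 35.3% and 37.6% in WT and 52.5%, 55.9% and 56.7% in Hspa9 cKO. Lef1's exon of 84 nucleotides stood at 97.98%, 95.9% and 97.4% against 85.3%, 88.5% and 98.2%. The exon of 261 nucleotides in Ikzf1, which encodes Ikaros, stood at 75.5%, 84.0% and 73.5% against 44.8%, 55.5% and 74.4%. Ptprc encodes CD45, whose variable exons are skipped to a differing extent through T cell development and activation. The variable exon of 147 nucleotides was included at 9.19%, 9.25% and 6.57% in WT and 7.95%, 6.26% and 7.37% in Hspa9 cKO, and those of 129 and 141 nucleotides, whose skipping form is the inclusion form of the first, at 0% to 5.65% in each library. Lat, the scaffold of the receptor complex, had its exon of 30 nucleotides at 100% after rounding in all 6 libraries. It counts among the 7 higher exons by a difference of 8.66e-05 points (adjusted p = 0.635).

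Mitochondrial proteins encoded in the nucleus had 26 pairs in 17 of 59 genes, with 1 higher, 1 lower and 0 called, or 4% each way beside 7.88% and 3.2% of all members. Ndufv3, a complex I subunit with a long alternative exon of 1092 nucleotides, showed 16.6%, 16.8% and 17.4% in WT and 19.1%, 27.1% and 25.9% in Hspa9 cKO, without overlap (adjusted p = 0.597). Opa1, the fusion GTPase of the inner membrane, showed 7.42%, 10.4% and 9.54% against 11.7%, 6.95% and 8.13%, and Dnm1l, the fission GTPase, 83.4%, 81.4% and 83.3% against 84.3%, 70.0% and 76.4% for its exon of 33 nucleotides. Both overlapped. The 12-nucleotide exon of Idh3g, a subunit of isocitrate dehydrogenase, was listed in Hspa9 cKO replicates 1 and 3 alone, at 15.9% and 15.2%.

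Cell cycle and DNA repair genes gave called totals but no called ratio. Of their 28 pairs in 18 of 54 genes, 9 had a lower called total and 0 a higher one, while shares were higher without overlap in 4, lower in 4 (14.3% each, beside 7.88% and 3.2% of all members) and called in 0. Over all members 153 totals were higher and 91 lower (4.80% in all, against 4.94% over all paired kinds, 3.04% higher and 1.9% lower). Called totals numbered 41, 73 and 92 without WT replicates 1, 2 and 3, and 20, 46 and 17 without those of Hspa9 cKO. The most abundant pairs of the list, in Anapc5 and Cdk4, stood at 99.796% or more in every library, with overlap. Cdc26 and Mdm4 were named after their values were seen. Cdc26 belongs to the anaphase-promoting complex. Its 5′ untranslated exon stood at 94.6%, 96.0% and 93.4% in WT and 76.2%, 86.4% and 90.8% in Hspa9 cKO (adjusted p = 0.207), beside a total that fell by 1.96 on the log2 scale (difference -1.96, adjusted p = 0.00168). Mdm4, an inhibitor of p53, had an untranslated exon of 78 nucleotides at 0.939%, 0.623% and 1.02% against 10.9%, 43.6% and 28.3% (adjusted p = 0.207). Cell death and innate sensing genes had 18 pairs in 13 of 42 genes, with 0 higher, 0 lower and 0 called, beside 7.88%, 3.2% and 0.216% of all members.

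Microexons differed in direction from gene to gene. By non-overlapping shares 5 were higher in Hspa9 cKO and 6 lower, 5.15% and 6.19% of 97 beside 7.88% and 3.2% of all members, and the 3 called ratios among them (Rapgef2, Rps24 and Cd3g, above) were higher. The exon of 23 nucleotides in Trim30a, an interferon-inducible ubiquitin ligase, was higher at 78.6%, 68.3% and 56.4% in Hspa9 cKO against 53.3%, 55.8% and 51.4% in WT (adjusted p = 0.597). Max, the dimerization partner of Myc, has an exon of 27 nucleotides that stood at 41.0%, 46.6% and 35.5% in WT and 34.1%, 19.3% and 26.7% in Hspa9 cKO (adjusted p = 0.576). The exon of 24 nucleotides in Flna, an actin crosslinker, stood at 1.17%, 3.58% and 35.4% against 0.226%, 0.129% and 0.241%, so WT replicate 3 carried most of the difference. Slc38a10, an amino acid transporter, showed 2.73%, 41.9% and 23.9% against 2.0005%, 0.0168% and 0% (adjusted p = 0.328). Mef2d's beta exon, known from muscle and brain, was at or under 2.18% in every library. These microexons were named after their values were seen.

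Some abundant members were picked by level within a class of share or length. Rps9, Ptma and Rps18 were the most abundant pairs with shares under 10% in all 6 libraries, so their low shares are how they were chosen. Rps9 and Rps18, proteins of the small ribosomal subunit, skipped their decay exons in all libraries, with shares up to 0.633% and 0.065%. For Ptma, which encodes prothymosin alpha, the rare exon stood at 0.0227% to 0.430% in 5 libraries and at 8.13% in Hspa9 cKO replicate 3. That library also held the highest inclusion of the untranslated exon of Srsf2, 35.1%, beside 0.133% to 7.55% in the others. Naca, Actb and Coro1a were the most abundant pairs with exons over 200 nucleotides. The giant exon of Naca was included at 0% to 0.138%. Actb skipped its exon of 240 nucleotides in WT replicate 1 alone (96.2% included), and Coro1a included its exon of 216 nucleotides at 98.6% or more throughout.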

How the data were processed

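RNA of 3 WT and 3 Hspa9 cKO libraries of DN3 thymocytes had been sequenced, and the titles gave the groups. The submitters' processing notes name cutadapt 1.9.1 and the build mm10. No aligner, assembler, event caller, annotation or strandedness is named in these sources, so overlapping and antisense genes may share signal. The values are FPKM per the file headers, which the authors deposited for each transcript event and library. Such a value is an estimate that depends on how reads were divided among isoforms, so pairs of the same gene are not independent. Without counts the depth per library is unknown and no counting interval is given; the number of libraries limits the precision. Repeated event numbers were dropped and unlisted events set to 0.

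Pairs were formed by locus, strand and flanking edges, and exons were matched by position to GENCODE M21 on the same build. A gene name is that of the matching exon; 44 exons matched more than 1 gene and for 325 the name differs from the table's locus. Log2((inclusion + 1)/(skipping + 1)) and log2(total + 1) were tested with limma 3.58.1 (R 4.3.3; trended, robust, two-sided), with Benjamini-Hochberg adjustment over all 9781 paired events of 8 kinds whose totals averaged 5 FPKM or more. Single values per library were tested with exact permutation (Python 3.11.15). Tested on simulated data of 9781 pairs for the ratio comparison, this recovered 11.0%, 43.6% and 63.9% of ratios changed by 1, 2 and 4 on the log2 scale, with 3 false calls. The simulated ratios had independent normal noise of each pair's own spread. Unlisted forms, jumps of single libraries and shared series were not modelled, so these rates need not hold for the real pairs.

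Named exons are, in each direction, up to 10 called pairs with non-overlapping shares. They were filled up with uncalled pairs of at least 10 FPKM and the largest share differences. The pairs nearest the threshold were added. The 3 pairs with the highest total were also taken from each of 7 gene lists and from microexons (at most 27 nucleotides). The same was done for exons over 200 nucleotides and for pairs under 10% inclusion. Of those picked from the gene lists by total, not all are described. Pairs of Srsf6, Ddx17, Sdha, Fis1, Irf3 and Casp2, an unannotated exon of Snrnp70 and the 36-nucleotide exon of Srsf7 are left out. Of these, only the Srsf7 exon had shares without overlap, higher in Hspa9 cKO, and none had a called ratio. Other exons were named after their values were seen. The members and lists were chosen with earlier results of these data known. Other pseudocounts, filters, tested values and left-out libraries were tried as alternatives.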

Additional observations from a re-analysis of the deposited data

How the results depend on the processing

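Every difference of the median inclusion share, of the skipped share of the signal and of the frame gap kept its direction under all other filters and without any 1 library: without 1 library the median difference ran from 3.89 to 4.91 points, that of the skipped share from -1.72 to -1.33 and that of the gap from 0.765 to 2.41. Chosen after seeing the data, the ratio of higher to lower non-overlapping shares (2.47) was 2.33 with both forms listed, 2.77 for differences of at least 10 points, 2.55 without members that share a series, and 2.08 to 2.24 without 1 library. The microexon difference ran from -7.64 to -3.75 points without 1 library.

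The count of called ratios was 11 (10 higher, 1 lower). It was 26 (23 and 3) with a pseudocount of 0.1 FPKM, 21 (18 and 3) for pairs with at least 1 FPKM in each library, 3 (3 and 0) with both forms listed throughout, and 0 to 5 (0 to 5 higher, 0 lower) without 1 library. With the share itself as the tested value, the count was 12 (9 higher, 3 lower). Without 1 library, 17 to 92 totals were called, 6 to 63 higher and 10 to 29 lower. A replicate block gave 0 called ratios (0 higher, 0 lower) and 0 called totals (0 higher, 0 lower). No label says whether same-numbered libraries belong together. Their deviations from the group means correlated at 0.00279 to 0.012, and those of other numbers at -0.0495 to 0.0377. Such correlations cannot tell how the libraries were prepared. None of the 11 called pairs reversed under any setting, and all 11 were kept at a minimum of 10 FPKM. Of the 11, 8 were kept with no filter, 8 in a fit of single skipped exons alone, 2 (Tnks2 and Mthfd1) with the share as the tested value, 0 with the replicate block and 0 to 2 without 1 library, while all 3 with both forms listed throughout were kept. The cause of these moves was not tested, beyond the fewer libraries or pairs that some settings hold. FPKM without counts leave small shares of rare forms without an error from counting.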
